A study of Mus musculus with 14 samples.

Results

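The ventral and the dorsal epicardium with its subepicardial layer were compared in male fetal mouse hearts at E16.5, in the 7 libraries of the study that are male and whose region the labels settle, out of 14 libraries in all. Of these, 4 are ventral (numbers 4 to 7) and 3 are dorsal (numbers 4 to 6). A further male library, numbered 7, is dorsal by its title and source name and ventral by its tissue label, and it was left out. The other 6 libraries are female, numbers 1 to 3 on each side, and are used only for the difference between the sexes. Each library was made from poly(A) RNA of a pool of 2 hearts. Hearts came from at least 3 litters per the labels. All groups carry the label Tbx18Cre, a Cre recombinase expressed from the locus of the epicardial gene Tbx18, whereas the study's text calls the hearts wild type, and the mice were of mixed background. Sex and the numbering series cannot be told apart, since no number occurs in both sexes. What a library number marks is not stated, and p-values measure the spread between these samples, which may be technical in part.

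The epicardium is the mesothelial sheet that covers the heart. Some of its cells undergo an epithelial-to-mesenchymal transition, enter the subepicardial space and become fibroblasts and mural cells, and the sheet secretes retinoic acid, Wnt ligands and growth factors toward the myocardium. Coronary veins, nerves, tissue macrophages and the coronary lymphatics all run in or through the subepicardium, which is a loose layer rich in collagen that lies directly on the compact ventricular muscle.

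Values are read counts scaled to library size (normalized CPM), and differences are ventral minus dorsal on log2(normalized CPM + 1), a scale that understates the change of genes with low values. The 7 libraries held 15.2 to 24.7 M reads, and 3 reads correspond to 0.120 to 0.200 normalized CPM. Ventral 7 and dorsal 6 stood apart from the rest. Ventral 7 gave 11.8% of its signal to its 10 highest genes, against 5.97% to 7.67% in the other 6 libraries, and dorsal 6 had 1209 listed genes at 3 reads or fewer, against 274 to 657 in the others. The first principal component (36.2% of the variance) ran from dorsal 4 at -49.0 to ventral 7 at 53.7, with dorsal 6 at 16.5 among the ventral libraries, and the second (23.1%) set dorsal 6 apart at -60.0. Lists of genes are therefore given with all 7 libraries and without a single library where that moves their median strongly.

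The tissue label was checked with marker genes of 23 cell types. All 15 epicardial markers were present, among them Wt1 and Tbx18, transcription factors that define the epicardium, and Upk3b and Msln, membrane proteins of mesothelium. Their summed level was 1918, 2437 and 5214 normalized CPM in dorsal 4, 5 and 6 and 2725, 2363, 6776 and 7183 in ventral 4, 5, 6 and 7. The groups overlapped, since the dorsal 6 sum lay above ventral 4 and 5. Fibroblast markers (11 of 11) summed to 7627, 11007 and 13134 dorsally and 11415, 13076, 26162 and 18895 ventrally, also with overlap. Macrophage markers (9 of 10) summed to 164, 319.6 and 362 dorsally and 357, 410.1, 738 and 902 ventrally, and here the lowest ventral library lay just below the highest dorsal one.

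The layer also held muscle, blood and vessels. Ventricular cardiomyocyte markers (12 of 12) summed to 42074, 33967 and 31388 dorsally and 31995, 30316, 20978 and 15597 ventrally, so that the highest ventral library lay just above the lowest dorsal one. Blood endothelial markers (8) summed to 1297, 1205 and 1239 dorsally and 927, 1087, 1110.1 and 352 ventrally without overlap, ventral 7 being far below the rest. Erythroid markers (5) summed to 6522, 7462 and 9662 dorsally and 11436, 7570.4, 12713 and 53306 ventrally, again with ventral 7 far from the rest, this time above. Atrial markers (6) summed to 797, 1126 and 1632 dorsally and 813, 1314, 1211 and 1507 ventrally and did not separate the regions. Markers of lung epithelium were not listed at all, 1 of 6 thymocyte and 3 of 6 hepatocyte markers were, and these summed to at most 6.47 and 9.54 in any of the 7 libraries. In bulk RNA, fewer cells of a type and less RNA of that type per cell cannot be told apart.

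**Figure D1:**
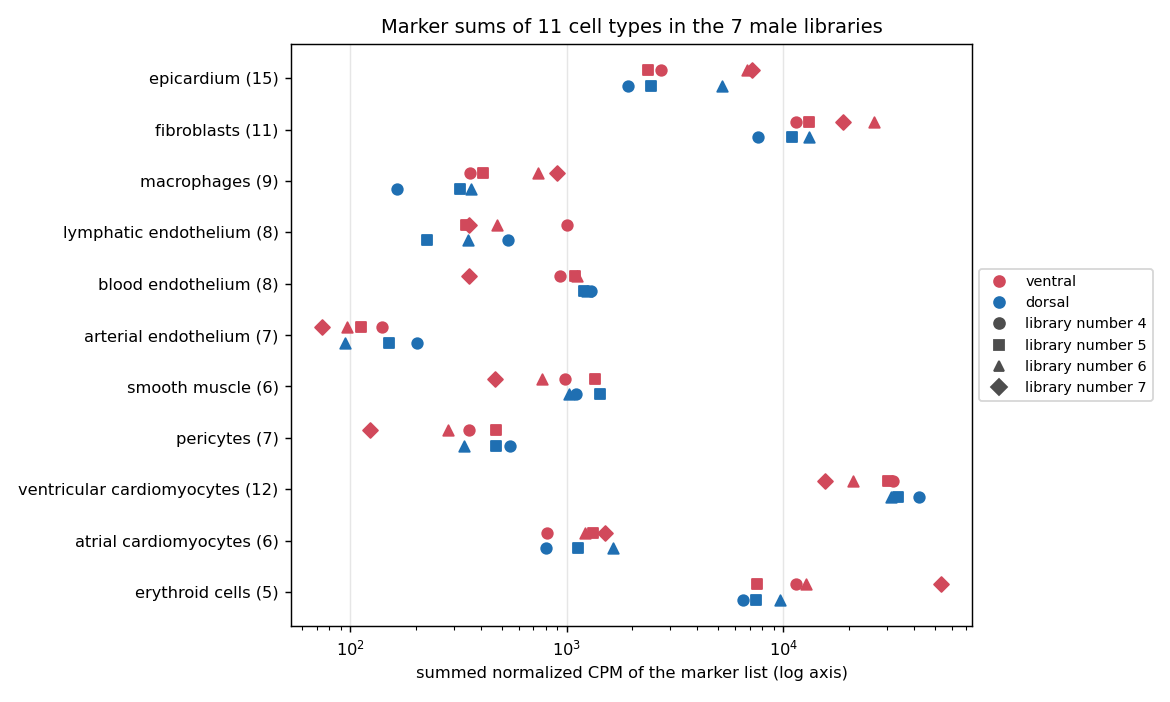
Summed normalized CPM (x axis, log scale) of the markers of 11 cell types (y axis, number of listed markers in brackets) in each of the 3 dorsal (blue) and 4 ventral (red) male libraries, with the marker shape giving the library number. Blood endothelial sums are the only ones shown here that do not overlap between the regions, and ventral 7 (diamond) lies far from the other ventral libraries for blood endothelium and erythroid cells.

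Across 14917 genes with at least 1 normalized CPM in at least 3 of the 7 libraries, no gene (0%) was called at an adjusted p under 0.05 with limma when the libraries were treated as 2 unpaired groups. At an unadjusted p under 0.05, 1021 genes (6.84%) were higher ventrally and 1062 (7.12%) higher dorsally. The quasi-likelihood test of edgeR on the recovered reads likewise called 0 genes and gave 1802 at an unadjusted p under 0.05, and limma-voom called 0 and gave 1913. In 922 genes (6.18%) all 4 ventral libraries lay above all 3 dorsal ones, and in 1166 (7.82%) all lay below. Differences were positive in 7892 genes and negative in 7025. These counts are the background for the lists below. The smallest adjusted p belonged to Scand1, a protein with the SCAN domain found in some transcription factors. Its log2 difference was 2.28 ± 0.26 (SE, adjusted p = 0.0825). Without dorsal 6, 12 genes were called. Without ventral 7, 14600 genes could be tested, of which 716 (4.9%) were higher ventrally and 700 (4.79%) higher dorsally at an unadjusted p under 0.05.

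Dorsal and ventral libraries of the same number deviated together from their group means, with correlations of 0.429, 0.184 and 0.359 for numbers 4, 5 and 6. When each number was taken as a pair, limma called 62 genes higher ventrally (0.416% of those tested) and 14 higher dorsally (0.0939%). This paired fit gave 1269 genes higher ventrally and 1109 higher dorsally at an unadjusted p under 0.05. Ventral 7 has no partner, so the paired difference is the mean of the 3 within-number differences and equals the unpaired difference without ventral 7. Paired differences are given with their SE. All 62 and all 14 kept their direction in each of the 3 pairs, a property that this fit favors. The ventral group held 55 protein-coding genes and 50 genes without overlap between the regions, and its differences had a median of 1.23 (range 0.71 to 4.62) on the log2 scale. The dorsal group held 13 protein-coding genes and 9 without overlap, with sizes of 0.78 to 3.99 and a median of 1.22. The total of 76 was 23 without number 4, 46 without number 6 and 102 without number 5. These calls rest on few residual degrees of freedom (2, with 14.6 added by sharing the spread between genes), and 0 genes were called when edgeR was given the same pairs (1969 at an unadjusted p under 0.05).

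**Figure D2:**
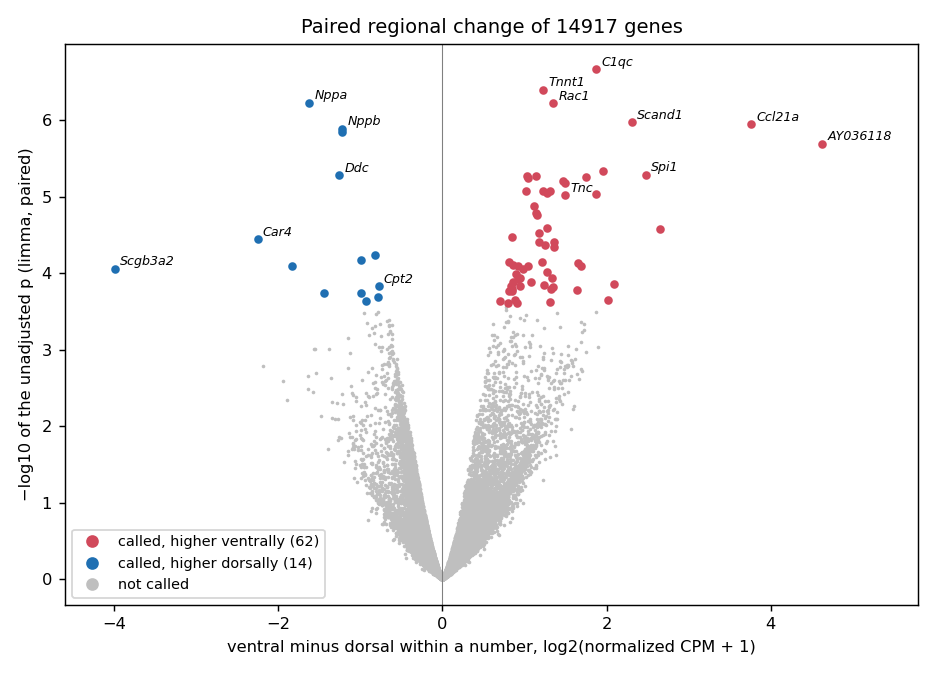
Paired ventral minus dorsal difference on log2(normalized CPM + 1) (x axis) against the −log10 of its unadjusted p from limma (y axis) for 14917 genes. The 62 genes called higher ventrally (red) include C1qc, Spi1, Tnc and Ccl21a, and the 14 called higher dorsally (blue) include Nppa, Nppb, Ddc and Car4.

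Macrophage genes were higher on the ventral side. Of 9 macrophage markers tested, 9 had a positive difference, 5 of them at an unadjusted p under 0.05 (beside 6.84% of all genes), and C1qc, Csf1r and Lyz2 were called in the paired fit. The list's median was 0.97 with all libraries, 0.63 without dorsal 4 and 0.74 in the paired fit, beside 0.03 with all libraries and 0.02 in the paired fit over all genes. Within numbers 4, 5 and 6 the median was 0.78, 0.19 and 0.93. C1qc (chromosome 4, 136889804 to 136893065, minus strand of GRCm38), which encodes a chain of the complement protein C1q that resident macrophages make, measured 8.37, 22.9 and 39.7 in dorsal 4, 5 and 6 and 58.7, 66.7, 109.6 and 108 in ventral 4, 5, 6 and 7. Every ventral library was above every dorsal one, with a paired difference of 1.87 ± 0.22 (SE; adjusted p = 0.00225).

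Its neighbors on the same chromosome encode the other chains of C1q. C1qa had 13.8, 31.7 and 33.5 dorsally and 38.6, 38.5, 70.2 and 80.5 ventrally, also without overlap, and a paired difference of 0.91 that was not called (adjusted p = 0.0797). C1qb, whose groups overlapped, had 41.8, 84.2 and 88.1 dorsally against 101, 86.6, 169 and 214 ventrally, a difference of 0.74 (adjusted p = 0.101). Csf1r, the receptor for the growth factor that macrophages need to survive, rose from 24.6, 40.7 and 45.4 dorsally to 47.1, 61.2, 112 and 110.4 ventrally, a paired difference of 0.92 ± 0.18 (SE; adjusted p = 0.0263). Lyz2, the lysozyme of myeloid cells, stood at 24.1, 35.5 and 43.3 dorsally and 42.1, 53.3, 117 and 205 ventrally, with the lowest ventral value just below the highest dorsal one and a paired difference of 0.92 ± 0.18 (SE; adjusted p = 0.0331).

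Spi1, Ccl9 and Batf, which are also known from immune cells, lie outside the marker list and are named because their ventral differences were among the largest. Spi1 (chromosome 2, 91082390 to 91115756, plus strand), which encodes PU.1, the transcription factor required for myeloid and B lineages, was at 0.767, 0.472 and 1.92 dorsally and 8.82, 9.12, 12.2 and 10.3 ventrally. Its groups were far apart, and the paired difference of 2.48 ± 0.38 (SE; adjusted p = 0.00536) came with an unpaired one of 2.49 (adjusted p = 0.0966). Ccl9, a chemokine of myeloid cells, had 0.833, 1.82 and 1.78 dorsally against 4.73, 3.59, 12.3 and 12.7 ventrally without overlap, and a paired difference of 1.53 (adjusted p = 0.106). Batf, an AP-1 family factor of immune cells, had 2.63, 2.69 and 1.35 dorsally against 6.06, 8.48, 16.1 and 18.7 ventrally (paired difference 1.73, adjusted p = 0.0759). Neither of the latter was called. Stab1, a scavenger receptor of macrophages and sinusoidal endothelium, and Hmox1, the heme-degrading enzyme, were picked out after their values were seen. Stab1 rose from 28.3, 26.3 and 12.7 dorsally to 74.4, 41.9, 47.1 and 46.3 ventrally (paired difference 1.28 ± 0.22, adjusted p = 0.0135). Hmox1 rose from 13.03, 15.1 and 39.9 dorsally to 29.9, 26.3, 84.4 and 118 ventrally (paired difference 0.99 ± 0.19, adjusted p = 0.0273). The markers Cx3cr1, Mrc1, Adgre1 and Cd68 had smaller paired differences of 0.24, 0.26, 0.37 and 0.35, none of them called.

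Epicardial genes were higher ventrally on average, but the size depended on the pair. All 15 epicardial markers had a positive difference, with a median of 0.72 that became 0.39 without ventral 7 (14 positive, 1 negative) and 1.04 without dorsal 6. It was 0.42 without dorsal 4 and 0.48 without dorsal 5. Within numbers 4, 5 and 6 the median was 0.74, -0.04 and 0.36, so that pair 5 showed no ventral excess. With all libraries 2 of the 15 reached an unadjusted p under 0.05, beside 6.84% of all genes higher ventrally. Without dorsal 6, 7 of the 15 did, beside 1116 of 14744 genes. Rspo1, a secreted protein that amplifies Wnt signaling, was the one marker called in the paired fit: it rose from 6.83, 10.1 and 15.3 dorsally to 20.3, 17.5, 46.98 and 53.96 ventrally, without overlap, a difference of 1.24 ± 0.25 (SE; adjusted p = 0.0369). Wt1 measured 39.8, 64.98 and 108 dorsally and 76.4, 81.2, 184 and 216 ventrally, with overlap and a paired difference of 0.67 (adjusted p = 0.0807). For Tbx18, whose locus carries the Cre, the values were 19.5, 21.9 and 29.3 dorsally against 41.97, 27.5, 54.04 and 58.2 ventrally (paired difference 0.75, adjusted p = 0.118). Msln (396, 465 and 831 dorsally, 573, 453, 1517 and 1678 ventrally) and Upk3b (681, 939 and 1831 dorsally, 892, 834, 2171 and 2123 ventrally) overlapped widely.

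Wnt pathway genes, Rspo1 among them, were mostly higher ventrally. Of 21 tested, 18 had a positive difference and 6 did not overlap, all of these higher ventrally, beside 6.18% of all genes. At an unadjusted p under 0.05 there were 5, beside 6.84% of all genes. The median was 0.45 (0.74 without dorsal 6), and 0.68, 0.40 and 0.13 within numbers 4, 5 and 6. Without ventral 7, 3 reached that p, beside 4.9% of all genes. Wnt4, a ligand, measured 1.37, 3.998 and 2.87 dorsally and 6.27, 7.67, 6.92 and 9.29 ventrally without overlap (paired difference 1.15, adjusted p = 0.168). Sfrp1, a secreted antagonist that binds Wnt proteins, had 81.1, 102 and 119 dorsally against 135, 153, 168 and 156 ventrally, also without overlap (paired difference 0.60, adjusted p = 0.0797). Neither was called. Among 12 retinoic acid pathway genes, 9 were positive and 2 reached an unadjusted p under 0.05. In the paired fit 1 of the 12 was called, higher ventrally, beside 0.416% of all genes. The list's median of 0.32 moved with single libraries: it was 0.09 without dorsal 4 and 0.50 without dorsal 6. It was 0.10 after the dependence on GC content and length was taken out. Rarb, a retinoic acid receptor, had 11.3, 12.4 and 13.02 dorsally and 20.8, 23.02, 27.2 and 27.6 ventrally without overlap, but its paired difference of 0.89 was not called (adjusted p = 0.114). Aldh1a2, the enzyme that makes retinoic acid in the epicardium, overlapped between 35.97, 52.4 and 117 dorsally against 77.3, 41.7, 121 and 149.5 ventrally.

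Collagens and matricellular proteins had mostly positive differences, while other lists of matrix genes lay nearer the background. Of 32 collagen genes tested, 31 were positive, 14 at an unadjusted p under 0.05, and 5 did not overlap, beside 6.84% and 6.18% of all genes in that direction. Their median was 0.64, with 0.57, 0.16 and 0.94 within numbers 4, 5 and 6. Without ventral 7, 29 of 30 were positive, with 8 at an unadjusted p under 0.05, beside 4.9% of all genes. The median was then 0.56. The collagen sum moved with the fibroblast markers given above, which share Col1a1, Col1a2 and Col3a1 with this list, and 10 of 11 fibroblast markers were positive (median 0.50, but 0.25 without dorsal 4 and 0.76 without dorsal 6). The part of the number of fibroblasts in these values was not tested.

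One collagen was called. Col16a1, a fibril-associated collagen, rose from 10.4, 27.7 and 25.1 dorsally to 41.4, 36.1, 74.7 and 57.1 ventrally without overlap, a paired difference of 1.27 ± 0.25 (SE; adjusted p = 0.0295). Col1a1, a chain of type I collagen, had 2640.5, 3896 and 4849 dorsally and 4246, 4645, 11299.6 and 6953 ventrally, where ventral 4 and 5 lay under dorsal 6 (paired difference 0.72, adjusted p = 0.182). Values for Col14a1 were 147, 186 and 127 dorsally against 165, 237, 281 and 241 ventrally, and for Col4a1, of the basement membrane, 254, 244 and 195 dorsally against 325, 272, 266 and 151 ventrally, both with overlap.

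Matricellular and elastic-fiber proteins contributed 3 of the called genes. Of 24 tested, 21 were positive and 9 reached an unadjusted p under 0.05, beside 6.84% of all genes. Without ventral 7, 8 reached that p, beside 4.9% of all genes. With all libraries the list's median was 0.57, and it fell to 0.31 without dorsal 4 and 0.33 without ventral 6. Tnc (chromosome 4, 63959785 to 64047015, minus strand), which encodes tenascin C, a glycoprotein of remodeling matrix, rose from 17.2, 9.49 and 18.8 dorsally to 37.4, 47.2, 44.9 and 47.4 ventrally. The lowest ventral library was well above the highest dorsal one, and the paired difference was 1.498 ± 0.24 (SE; adjusted p = 0.00597). Tnxb, tenascin X, rose from 22.6, 24.5 and 18.2 dorsally to 51.2, 42.4, 57.9 and 45.6 ventrally, again without overlap (paired difference 1.18 ± 0.21, adjusted p = 0.0148). Thbs1, thrombospondin 1, which binds and activates latent TGF-beta, rose from 24.7, 26.7 and 56.4 dorsally to 43.7, 58.8, 88.7 and 81.7 ventrally with overlap between ventral 4 and dorsal 6 (paired difference 0.85 ± 0.18, adjusted p = 0.0386). Fibronectin (Fn1) had 194, 282 and 279 dorsally against 278, 319.6, 615 and 509 ventrally, and periostin (Postn) 563, 479.8 and 404 dorsally against 460.04, 652, 429 and 408 ventrally, neither of them called and the latter with no ventral excess (paired difference 0.08).

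The other structural lists showed less. The 18 basement membrane genes, of which 14 were positive, had a median of 0.19 that was 0.08 without ventral 6 and -0.06 after the dependence on GC content and length was taken out. Of these genes, 1 reached an unadjusted p under 0.05 and did not overlap: Col4a6, a type IV collagen chain, had 4.5, 5.19 and 4.77 dorsally against 7.698, 10.2, 8.56 and 12.99 ventrally (paired difference 0.75, adjusted p = 0.29). Of 11 small leucine-rich proteoglycans, 9 were positive (median 0.35, but 0.15 without dorsal 4 and 0.60 without ventral 4) and 0 reached that p ventrally. The single gene at that p, Prelp, a proteoglycan that binds collagen, lay the other way without overlap, with 13.5, 11.5 and 18.8 dorsally against 9.85, 7.15, 6.44 and 9.59 ventrally (paired difference -0.82, adjusted p = 0.229).

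Enzymes that process matrix were mixed. The 16 metalloproteinases and inhibitors had a median of 0.08 (-0.02 without ventral 6 and 0.27 without ventral 4), with 11 positive and 5 negative. Mmp14, a membrane-bound collagenase, rose from 29.3, 38.1 and 43.98 dorsally to 57.2, 57.1, 93.6 and 75.2 ventrally without overlap (paired difference 0.86 ± 0.17, adjusted p = 0.0354). Of 15 ADAMTS proteases, 11 were positive (median 0.34, or 0.16 without dorsal 6, 0.18 without dorsal 5, 0.19 without ventral 6 and 0.55 without ventral 5), and Adamts2, the procollagen N-proteinase, rose from 26.3, 42.1 and 56.9 dorsally to 66.005, 63.9, 101 and 70.5 ventrally, also without overlap (paired difference 0.90 ± 0.18, adjusted p = 0.0304). Adam33, Plod2 and Htra1 are outside the lists and were picked after their values were seen. Adam33, a membrane metalloprotease of mesenchyme, rose from 13.2, 17.1 and 20.8 dorsally to 34.04, 33.7, 69.8 and 95.9 ventrally (paired difference 1.32 ± 0.21, adjusted p = 0.00596), Plod2, which hydroxylates collagen lysines, from 29.3, 54.7 and 77.3 dorsally to 71.5, 74.3, 139 and 104 ventrally (paired difference 0.84 ± 0.18, adjusted p = 0.0392), and Htra1, a secreted serine protease, from 37.9, 54.2 and 46.4 dorsally to 68.4, 79.3, 97.5 and 65.1 ventrally (paired difference 0.81 ± 0.17, adjusted p = 0.0389).

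**Figure D3:**
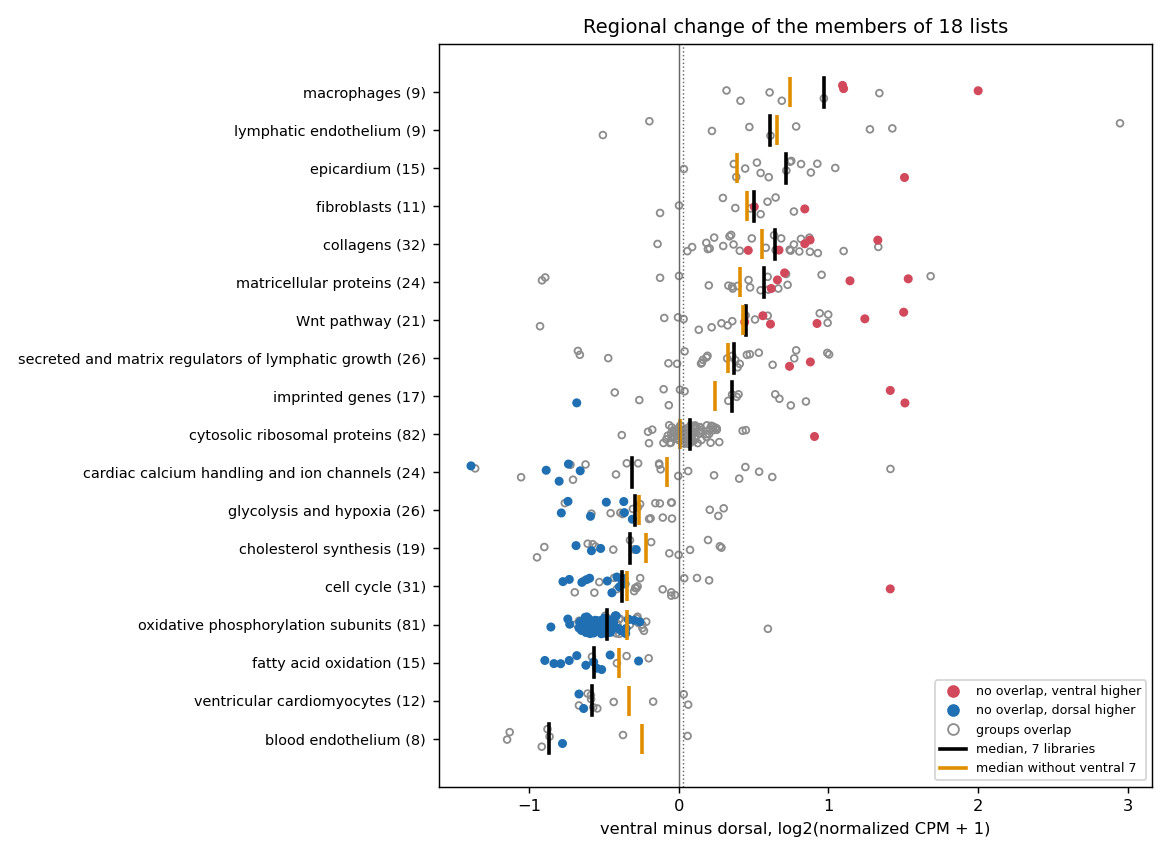
Unpaired ventral minus dorsal difference on log2(normalized CPM + 1) (x axis) of each tested member of 18 gene lists (y axis, number tested in brackets). Filled points are genes whose groups do not overlap (red ventral higher, blue dorsal higher), open points overlap, the black bar is the list median with all 7 libraries, the orange bar the median without ventral 7, and the dotted line the median of all genes (0.03). Collagens and matricellular proteins lie mostly above 0, and oxidative phosphorylation and fatty acid oxidation genes almost entirely below it.

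Lymphatic vessels were the subject of the study, and their genes differed widely between library numbers. Of the 9 lymphatic endothelial genes tested (Ccl21a counts under 2 identifiers), 7 were positive. In the unpaired fit 0 reached an unadjusted p under 0.05. In the paired one 6 did, all higher ventrally, beside 1269 of 14917 genes. The median was 0.61 unpaired (0.21 without ventral 4 and 0.38 without dorsal 6), and 0.73, 0.90 and 0.44 within numbers 4, 5 and 6. Ccl21a, the chemokine by which lymphatic endothelium attracts dendritic cells, had 213, 0.308 and 0.0237 in dorsal 4, 5 and 6 and 508, 59.8, 21.8 and 8.44 in ventral 4, 5, 6 and 7. Number 4 was high on both sides and the groups overlapped, but within each number the ventral library was higher, and the paired difference of 3.76 ± 0.50 (SE; adjusted p = 0.00268) was called. Near-identical copies of Ccl21a exist in the mouse genome, and reads may have been divided between them, which makes its value uncertain.

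For the defining markers the ventral and dorsal groups overlapped. Prox1, the master transcription factor of lymphatic identity, which cardiomyocytes also express, measured 52.1, 36.03 and 47.1 dorsally and 44.7, 47.5, 39.04 and 27.2 ventrally. Lyve1, the hyaluronan receptor of lymphatics and of some macrophages, had 68.2, 52.3 and 36.3 dorsally against 158, 54.97, 71.03 and 59.7 ventrally, and Flt4, the receptor for VEGFC, 34.2, 13.96 and 19.3 dorsally against 55.1, 26.99, 21.6 and 11.3 ventrally. Mmrn1, a secreted multimerin, followed Ccl21a with 52.6, 0.923 and 1.07 dorsally against 57.003, 21.9, 7.201 and 3.04 ventrally. Within each number Lyve1, Flt4 and Mmrn1 were higher ventrally, while Prox1 was higher ventrally in number 5 only. Of the 9 lymphatic genes tested, 6 were higher ventrally in all 3 numbers, beside 2795 of 14917 genes. Prox1, Lyve1, Flt4 and Mmrn1 were not called in the paired fit (paired differences -0.03, 0.74, 0.58 and 1.89).

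Secreted and matrix regulators of lymphatic growth were mostly positive, but few stood out in the unpaired fit. Of 26 tested, 21 were positive, but 3 reached an unadjusted p under 0.05 and 2 did not overlap, beside 6.84% and 6.18% of all genes. In the paired fit, beside 1269 of 14917 genes, 5 of the 26 were higher ventrally at that p. Their median was 0.37, and 0.21 without dorsal 4, 0.19 among genes with a mean of at least 10 and 0.18 after the dependence on GC content and length was taken out. Adamts2, given above, was the only one called. Vegfc, the main lymphatic growth factor, measured 7.2999, 11.8 and 5.43 dorsally and 16.9, 5.99, 10.6 and 10.9 ventrally, and Vegfd, its close relative, 10.4, 23.6 and 14.3 dorsally against 15.5, 20.98, 27.9 and 19.7 ventrally, both with wide overlap (paired differences 0.36 and 0.43). Slit2, a guidance ligand, had 23.6, 40.1 and 37.6 dorsally against 40.8, 49.9, 75.98 and 62.1 ventrally without overlap, and a paired difference of 0.69 that was not called (adjusted p = 0.114). Cxcl12, a chemokine of the epicardium, had 92.97, 63.9 and 54.9 dorsally against 71.3, 82.5, 60.4 and 61.5 ventrally, and Wnt5a 16.7, 31.5 and 54.5 dorsally against 28.2, 36.97, 52.7 and 44.9 ventrally.

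On the dorsal side the smallest adjusted p was that of Nppa, which with Nppb encodes the cardiac natriuretic peptides, hormones that cardiomyocytes secrete when the wall is stretched and that mark atrial and trabecular muscle in the fetus. Nppa (chromosome 4, 148000722 to 148002079, plus strand) and Nppb (chromosome 4, 147985788 to 147987205, plus strand) lie next to each other on chromosome 4, with 13517 bases between the end of Nppb and the start of Nppa. The 120 bases upstream of each RefSeq start (GRCm38.p6) are shown because both genes were called in the same direction. Capitals mark TATAAA and GATAA, the core letters bound by GATA factors, on either strand (TTATC is GATAA on the other strand):
Nppa, chr4:148000602-148000721, plus strand: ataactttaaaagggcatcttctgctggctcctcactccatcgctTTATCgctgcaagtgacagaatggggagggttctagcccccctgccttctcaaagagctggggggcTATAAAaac
Nppb, chr4:147985780-147985899, plus strand: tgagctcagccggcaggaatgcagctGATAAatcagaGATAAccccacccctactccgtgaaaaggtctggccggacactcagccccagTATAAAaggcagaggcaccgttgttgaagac
TATAAA starts 9 bases before the start of Nppa and 31 before that of Nppb. GATAA occurs at 75 bases in Nppa, and at 94 and 83 bases in Nppb. Of 32851 RefSeq promoters, 6.34% hold TATAAA in this window, 10.5% hold GATAA and 1% hold both. The annotated start of Nppb used for its position above lies inside this window.

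Nppa measured 115, 87.2 and 390.3 in dorsal 4, 5 and 6 and 61.04, 27.99, 75.7 and 123 in ventral 4, 5, 6 and 7. Dorsal 6 was far above the rest, and ventral 7 lay above dorsal 4 and 5. Within each number the dorsal library was higher, and Nppa fell ventrally, with a paired difference of -1.62 ± 0.21 (SE; adjusted p = 0.00225). Nppb had 75.97, 46.6 and 331 dorsally against 41.1, 16.5, 128 and 101 ventrally, with the same high dorsal 6 and overlap between the groups, and a paired difference of -1.22 ± 0.17 (SE; adjusted p = 0.00268). The summed markers of atrial cardiomyocytes, a list that contains Nppa, did not separate the regions. Of the 6 genes tested, 2 reached an unadjusted p under 0.05, both with lower values ventrally, beside 7.12% of all genes. They were Nppa and Kcnj3, a potassium channel subunit of atrial muscle. Kcnj3 had 6.37, 3.67 and 3.2004 dorsally against 0.435, 2.87, 1.02 and 0.447 ventrally without overlap, and a paired difference of -1.23 that was not called (adjusted p = 0.207). Myl7, Myl4, Sln and Kcna5, the other atrial genes, had paired differences of 0.32, -0.23, 0.08 and -0.04, none called. The receptors Npr1, Npr2 and Npr3 had 0.16, 0.14 and 0.45.

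Genes of energy metabolism were mostly lower ventrally. Of 81 nuclear subunits of the oxidative phosphorylation complexes, 80 had a negative difference, 49 at an unadjusted p under 0.05, and 56 did not overlap, beside 7.12% and 7.82% of all genes in that direction. The exception was Cox6b2, an isoform best known from testis, with 10.97, 19.3 and 23.4 dorsally against 19.7, 15.6, 35.6 and 43.6 ventrally. The median was -0.48, and -0.16, -0.24 and -0.65 within numbers 4, 5 and 6. Without ventral 7 the median was -0.34. In that setting 27 were at an unadjusted p under 0.05 and 57 did not overlap, beside 700 and 1379 of 14600 genes. Sdhb, a subunit of complex II, had 1702, 1659 and 1749.8 dorsally and 1224, 1262, 951 and 759 ventrally, and Ndufb8, a subunit of complex I, 1318, 1434 and 1366 dorsally against 1118, 1152, 851 and 668 ventrally, both without overlap. No single subunit was called in the paired fit, in which 40 were lower ventrally at an unadjusted p under 0.05, beside 1109 of 14917 genes. The 15 mitochondrially encoded genes, transcribed inside the organelle, were all negative with the 7 libraries, with 0 at an unadjusted p under 0.05 and a median of -0.27. That median was -0.04 in the paired fit, which lacks ventral 7, -0.47 without dorsal 6 and -0.56 without ventral 4, and it was 0.36, -0.16 and -0.28 in numbers 4, 5 and 6.

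Genes of fatty acid oxidation were lower ventrally too. All 15 genes tested were negative, 11 at an unadjusted p under 0.05 and 11 without overlap, beside 7.12% and 7.82% of all genes. Their median was -0.57, and -0.40 without ventral 7. Cpt2, which completes the transfer of fatty acids into mitochondria, fell from 80.97, 104 and 109 dorsally to 47.6, 68.1, 55.4 and 54.7 ventrally (paired difference -0.78 ± 0.16, adjusted p = 0.0369). Cpt1b, the muscle enzyme of the preceding step, had 475, 409.6 and 416 dorsally against 253, 334, 276 and 147 ventrally, and Cd36, the fatty acid transporter of muscle and endothelium, 561, 436 and 572 dorsally against 272, 336, 370.3 and 178 ventrally, both without overlap and not called (paired differences -0.60 and -0.68). Glycolytic and hypoxia genes were negative in 23 of 26, with a median of -0.29. Of these, 5 reached an unadjusted p under 0.05 and 7 did not overlap, beside 7.12% and 7.82% of all genes. Without dorsal 6, 17 of 26 were negative and the median was -0.14. Pgk1 measured 795, 834 and 961 dorsally against 589, 678, 624 and 573 ventrally.

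Ventricular cardiomyocyte markers were mostly lower ventrally as well. Their sums, given above, fell from dorsal 4 to dorsal 6 and from ventral 4 to ventral 7. Oxidative phosphorylation subunits summed to 71085, 70735 and 70430 in dorsal 4, 5 and 6. In ventral 4, 5, 6 and 7 these subunits summed to 59653, 60202, 45251 and 36475. Of 12 ventricular cardiomyocyte markers 10 were negative, 3 at an unadjusted p under 0.05, beside 7.12% of all genes. The median was -0.58, or -0.33 without ventral 7 with 0 at that threshold. Myl2, the ventricular myosin light chain, had 2885, 2541 and 2437 dorsally and 2604, 1941, 1259 and 1355 ventrally, and Myh6, an atrial and adult myosin heavy chain, 2985, 2370.2 and 1595 dorsally against 2327, 2300.3, 1471 and 632 ventrally. Among 24 calcium-handling and ion channel genes 17 were negative, 8 at an unadjusted p under 0.05, beside 7.12% of all genes. Their median was -0.31. Without ventral 7 it was -0.08, with 5 lower ventrally at that p, beside 4.79% of all genes. Gja1, connexin 43, had 1481, 1028 and 1275 dorsally against 777, 925, 999 and 437 ventrally without overlap. The part of the amount of muscle in the metabolic differences was not tested.

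Called muscle genes were few. Nrap, a nebulin-related protein that anchors actin at intercalated discs, fell from 143, 88.7 and 92.7 dorsally to 69.4, 64.5, 51.1 and 47.1 ventrally (paired difference -0.78 ± 0.16, adjusted p = 0.0447). In the opposite direction, Tnnt1 (chromosome 7, 4504570 to 4516382, minus strand), the slow skeletal troponin T, rose from 84.03, 173 and 118 dorsally to 257, 350.2, 249 and 313 ventrally without overlap (paired difference 1.23 ± 0.15, adjusted p = 0.00225). Lrtm1, a leucine-rich membrane protein, likewise rose from 14.6, 16.96 and 21.8 dorsally to 60.1, 49.3, 42.7 and 27.4 ventrally (paired difference 1.47 ± 0.23, adjusted p = 0.00541).

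Cell cycle genes had mostly lower values ventrally. Of 31 tested, 27 were negative, 15 at an unadjusted p under 0.05 and 12 without overlap, beside 7.12% and 7.82% of all genes. Without ventral 7, 9 reached that p, beside 4.79% of all genes. The list's median was -0.38, with -0.59, -0.16 and -0.25 within numbers 4, 5 and 6. Ccnb1, the cyclin that drives entry into mitosis, had 267, 240.4 and 223 dorsally and 124, 178, 162 and 113 ventrally without overlap (paired difference -0.66, adjusted p = 0.0797). Mki67, a proliferation marker, had 95.9, 96.3 and 45.7 dorsally against 90.7, 72.5, 79.4 and 52.8 ventrally (paired difference 0.10). Of the list, 0 genes were called lower ventrally in the paired fit, where 16 reached an unadjusted p under 0.05, beside 1109 of 14917 genes. The one member called higher ventrally was Cdkn1c, an imprinted inhibitor of cyclin-dependent kinases, which rose from 25.8, 62.4 and 82.5 dorsally to 105, 86.5, 178 and 223 ventrally (paired difference 1.18 ± 0.21, adjusted p = 0.0171). Nuf2, part of the kinetochore and outside the list, fell from 80.5, 66.7 and 55.8 dorsally to 30.1, 38.7, 31.5 and 31.5 ventrally (paired difference -0.99 ± 0.19, adjusted p = 0.0262).

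**Figure D4:**
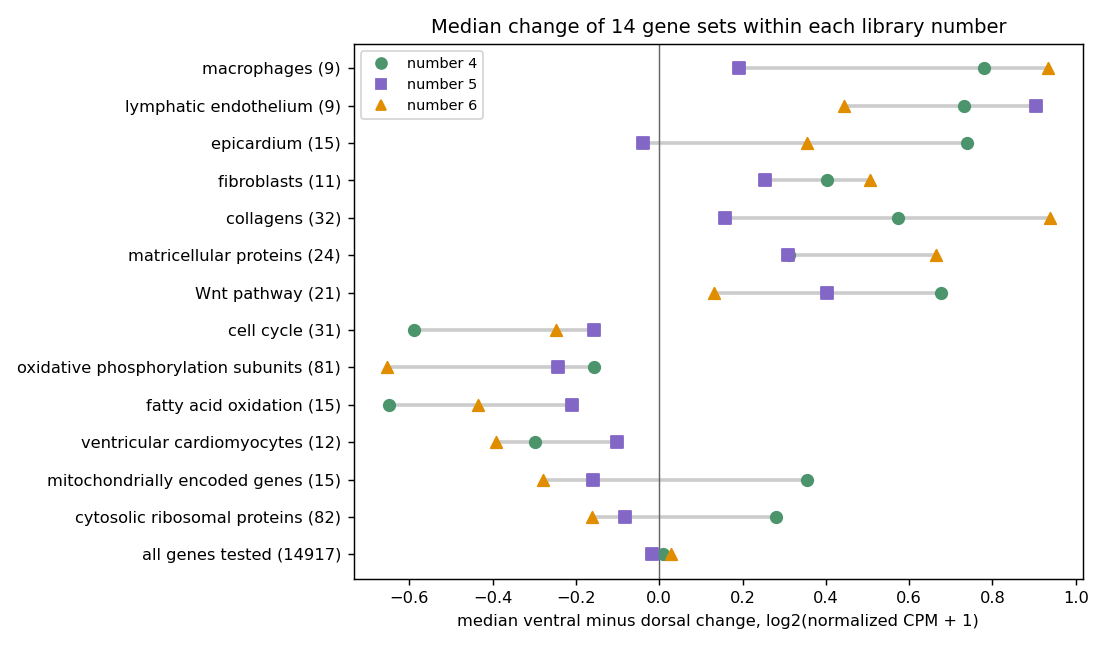
Median ventral minus dorsal difference on log2(normalized CPM + 1) (x axis) of 13 gene lists and of all genes tested (y axis, number of genes in brackets) within library numbers 4, 5 and 6. Macrophage, collagen and fibroblast medians are above 0 in all 3 numbers, and those of oxidative phosphorylation, fatty acid oxidation and cell cycle genes are below 0 in all 3, while epicardial, mitochondrially encoded and ribosomal medians change sign between numbers.

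Other dorsal genes came from several functions. Cited1, a transcriptional coregulator, fell from 218, 118 and 73.1 dorsally to 80.4, 64.4, 27.3 and 32.5 ventrally, with a paired difference of -1.22 ± 0.17 (SE; adjusted p = 0.00268). Only ventral 4 reached the dorsal range. Ddc (chromosome 11, 11814101 to 11898144, minus strand), the enzyme that makes dopamine and serotonin from their precursors, fell from 167, 161 and 136 dorsally to 100.1, 73.5, 35.2 and 64.3 ventrally without overlap (paired difference -1.26 ± 0.19, adjusted p = 0.00536). Car4, a membrane-bound carbonic anhydrase known from capillary endothelium, fell from 6.03, 6.4999 and 8.32 dorsally to 0.844, 0.741, 0.419 and 0.532 ventrally, where all ventral values were under 1 normalized CPM (paired difference -2.25 ± 0.40, adjusted p = 0.0169). Rbp7, a retinol-binding protein of adipose endothelium, fell from 34.97, 13.5 and 36.1 dorsally to 15.9, 6.19, 6.96 and 9.38 ventrally (paired difference -1.44 ± 0.30, adjusted p = 0.0398). Gca, a calcium-binding protein, and Polr1e, a subunit of RNA polymerase I, fell from 59.8, 57.7 and 41.8 dorsally to 20.6, 35.2, 23.8 and 26.8 ventrally and from 65.6, 53.6 and 44.8 dorsally to 33.1, 35.6, 18.2 and 19.7 ventrally (paired differences -0.99 and -0.93, adjusted p = 0.0398 and 0.0476).

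Scgb3a2, a secretoglobin of airway epithelium, was called although its values were scattered. It measured 1.23, 182 and 19.2 in dorsal 4, 5 and 6 and 0.486, 0.0601, 0.299 and 16.2 in ventral 4, 5, 6 and 7, so that single libraries on both sides carried it, and its paired difference was -3.99 ± 0.78 (SE; adjusted p = 0.0273). Lung epithelial markers were not listed in any library.

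Among genes without overlap but not called, those with the largest dorsal excess included channels and endothelial genes. Chrm2, the muscarinic receptor of heart muscle, had 21.2, 21.6 and 22.7 dorsally and 13.3, 8.797, 6.72 and 2.28 ventrally. Aqp4, a water channel, had 52.4, 64.6 and 37.4 dorsally against 21.97, 37.2, 22.999 and 4.57 ventrally, and Tecrl, a reticulum protein of cardiomyocytes, 58.2, 55.01 and 47.2 dorsally against 30.3, 38.6, 17.9 and 10.5 ventrally. Ly6c1, a surface protein of endothelium and monocytes, had 25.2, 15.03 and 7.85 dorsally against 7.49, 5.39, 6.08 and 1.77 ventrally. Btnl9, found in capillary endothelium, had 22.4, 10.8 and 19.2 dorsally against 6.93, 6.67, 8.36 and 3.21 ventrally. Ventral 7 was the lowest library for all 5 genes, and without it the differences of Chrm2, Aqp4, Tecrl, Ly6c1 and Btnl9 were -1.15, -0.89, -0.92, -1.09 and -1.096, against -1.57, -1.47, -1.25, -1.44 and -1.34 with it. The blood endothelial marker Pecam1 was lowest there as well, at 166, 127 and 91.3 dorsally and 85.5, 98.4, 88.3 and 12.4 ventrally. The median of 8 blood endothelial markers was -0.87 with ventral 7 and -0.25 without it. The same group of genes also held Rassf9, Steap4, Mall, Kif14, Pak6 and Dsc2, with unpaired differences of -1.43, -1.35, -1.31, -1.204, -1.17 and -1.17.

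The remaining named ventral calls have varied functions. Rac1, a small GTPase that controls actin at the leading edge of cells, rose from 38.4, 36.7 and 47.2 dorsally to 108, 115, 92.1 and 71.9 ventrally (paired difference 1.35 ± 0.17, adjusted p = 0.00225). Scand1 rose from 3.37, 4.12 and 6.09 dorsally to 27.7, 30.2, 20.5 and 23.8 ventrally (paired difference 2.31 ± 0.31, adjusted p = 0.00268). Rnf187, a ubiquitin ligase, rose from 33.8, 26.8 and 97.7 dorsally to 179, 148, 136 and 117 ventrally, Marcksl1, an actin-associated kinase substrate, from 34.6, 51.7 and 52.3 dorsally to 157, 188, 74.7 and 81.2 ventrally, and Camk1, a calmodulin-dependent kinase, from 25.2, 32.8 and 97.2 dorsally to 109, 114, 115 and 136 ventrally (paired differences 1.76, 1.500 and 1.36). Scube1, a secreted and membrane-bound glycoprotein, rose from 2.37, 7.44 and 6.23 dorsally to 15.5, 17.1, 21.9 and 15.9 ventrally, and Tpst1, which adds sulfate to tyrosines of secreted proteins, from 3.03, 6.62 and 14.3 dorsally to 19.9, 25.8, 25.1 and 22.8 ventrally (paired differences 1.68 and 1.65). Gpr37, a receptor of glia, went from 4.23, 3.83 and 0.0237 dorsally to 9.33, 16.4, 8.56 and 3.25 ventrally, with overlap (paired difference 2.02, adjusted p = 0.0476). Osr1, a zinc-finger factor of mesenchyme picked after its values were seen, rose from 16.2, 28.9 and 46.2 dorsally to 51.2, 49.9, 97.6 and 95.7 ventrally (paired difference 1.14 ± 0.19, adjusted p = 0.00931).

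Of the 62 ventral calls, 7 are not protein coding. Meg3, an imprinted long RNA expressed from the maternal chromosome, rose from 428, 555 and 242 dorsally to 1049.5, 638, 1357 and 1621 ventrally (paired difference 1.33 ± 0.27, adjusted p = 0.0386). Mirg, from the same imprinted cluster on chromosome 12, had 2.77, 7.73 and 2.02 dorsally against 16.1, 10.1, 17.01 and 16.7 ventrally without overlap and was not called (paired difference 1.703, adjusted p = 0.0782). Neat1, the RNA scaffold of nuclear paraspeckles, rose from 11.6, 5.88 and 5.998 dorsally to 45.6, 13.1, 44.1 and 40.2 ventrally (paired difference 1.87 ± 0.30, adjusted p = 0.00596). Dnm3os, transcribed antisense to Dnm3 and the source of 2 microRNAs of mesenchyme, rose from 9.43, 7.81 and 1.35 dorsally to 23.1, 18.3, 13.2 and 21.7 ventrally (paired difference 1.64 ± 0.34, adjusted p = 0.0386); since strand use in the counting is not stated, reads from Dnm3 cannot be told apart from it.

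A sign of RNA composition moved with region as well. AY036118 (chromosome 17, 39847113 to 39848035, minus strand) and Gm42418 (chromosome 17, 39846958 to 39848788, plus strand), which contains it on the opposite strand, lie in a part of chromosome 17 known to collect reads of ribosomal RNA. AY036118 measured 46.5, 2.15 and 0.0237 dorsally and 113, 117, 169 and 151 ventrally, a paired difference of 4.62 ± 0.65 (SE; adjusted p = 0.00339), and Gm42418 10.7, 15.8 and 5.43 dorsally against 45.8, 32.4, 46.7 and 37.3 ventrally, a difference of 1.96 ± 0.29 (SE; adjusted p = 0.00536). The ventral calls had a median GC content of 52.6%, the dorsal calls 49.1% and all genes 49.3%. After the dependence on GC content and length was taken out of each library, the paired fit called 41 ventral and 18 dorsal genes. The part of RNA composition in the ventral calls was not tested.

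**Figure D5:**
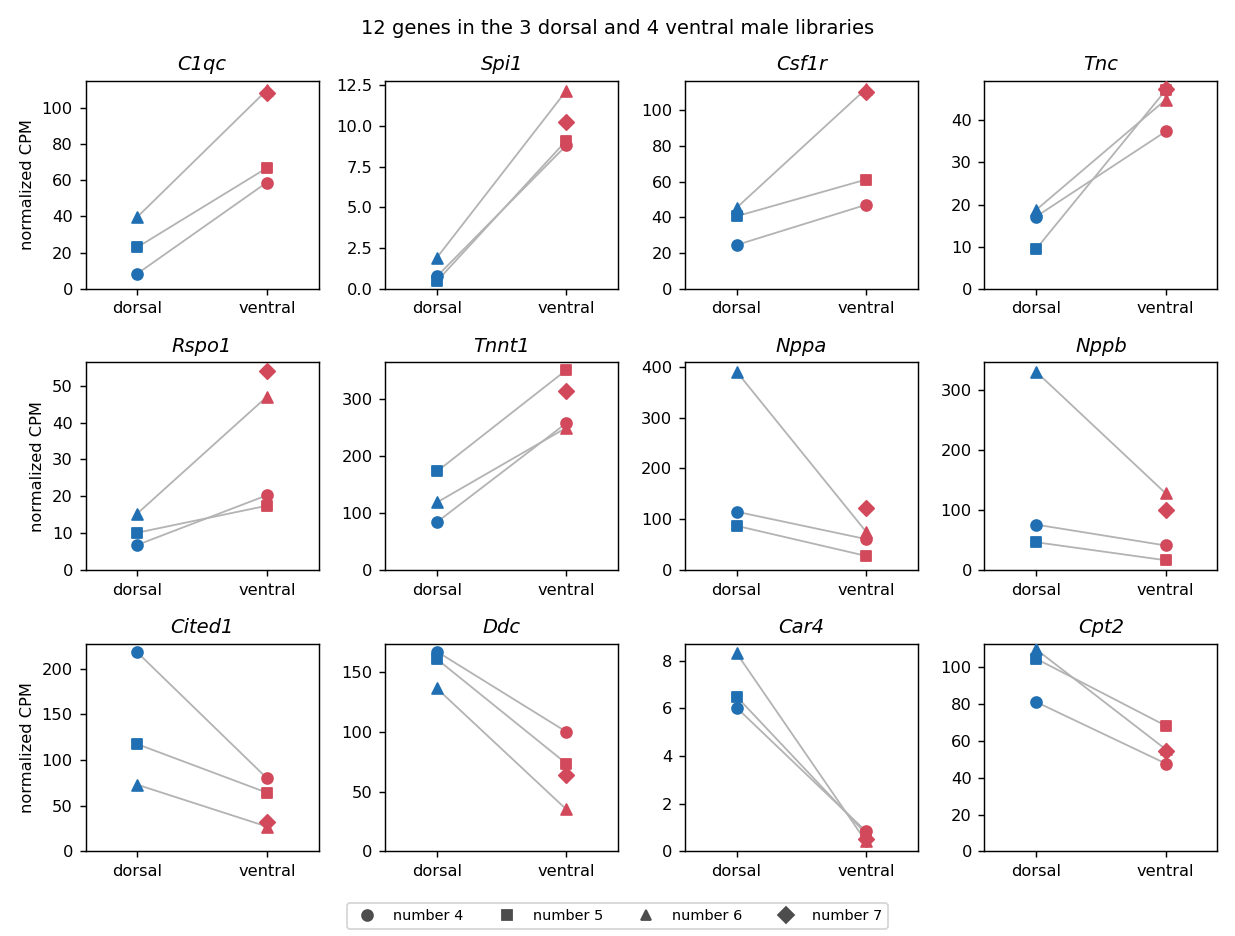
Normalized CPM (y axis, starting at 0, one scale per gene) of 12 genes in the 3 dorsal (blue) and 4 ventral (red) male libraries, with lines joining the libraries of one number. For all 12 genes the 3 lines run in the same direction, and Nppa and Nppb overlap between the regions, with ventral 7 (and for Nppb also ventral 6) above dorsal 4 and 5.

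The regional difference was set against that of female hearts in a fit of 13 libraries with 4 groups. Of 15772 genes, 431 (2.73%) differed in their ventral minus dorsal change between male and female hearts, 334 with a higher and 97 with a lower value in males. The count was 260 without female dorsal 2, 267 without female ventral 2 and 804 with the library number as a block. Of 32 collagens, 5 differed, all with a smaller ventral excess in males, with male minus female values of -1.72 for Col14a1, -1.49 for Col5a1, -1.39 for Col6a1, -1.48 for Col6a2 and -1.23 for Col4a2 (adjusted p = 0.0152, 0.0107, 0.00799, 0.0083 and 0.043). The median of the collagens was -1.005, that of the 9 macrophage markers -0.95 and that of the 15 epicardial markers -1.66, although 0 macrophage and 0 epicardial markers differed by the test.

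For other genes the ventral minus dorsal change, not the level, was higher in males. AY036118 had 21.9, 13.6 and 37.2 in female dorsal 1, 2 and 3 and 0.0261, 0.0362 and 0.0293 in female ventral 1, 2 and 3, so that the side with the higher values was reversed (male minus female 9.18, adjusted p = 0.000834). Spi1 measured 2.24, 2.75 and 2.82 dorsally against 3.31, 3.15 and 5.19 ventrally in female hearts, with a male minus female value of 2.07 (adjusted p = 0.018). Rac1 had 341, 379 and 418 dorsally and 126, 149 and 173 ventrally in female hearts. Scand1 had 35.7, 37.98 and 48.6 dorsally against 14.6, 22.1 and 18.6 ventrally in female hearts. Both were dorsally higher there, with male minus female values of 2.56 and 3.39 (adjusted p = 9.92e-05 and 9.92e-05). Rnf187, Marcksl1 and Camk1 were dorsally higher in female hearts too, with means of 167, 205 and 165 dorsally against 80.85, 107 and 80.2 ventrally. Male minus female values were 4.83, 4.04, 3.96 and 3.93 for Dapk3, Glrx5, Nrtn and Cited4. Dapk3 is a kinase of smooth muscle contraction and cell death, and Glrx5 acts in iron-sulfur cluster assembly. Nrtn is a neurotrophic factor, and Cited4 a coregulator related to Cited1. Female means of these genes, in that order, were 41.7, 208, 28.2 and 61.5 dorsally and 1.08, 20.3, 1.25 and 6.19 ventrally. Male means were 0.703, 7.46, 0.674 and 3.88 dorsally and 1.29, 13.5, 0.928 and 7.42 ventrally.

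In the other direction, the mitochondrial ribosomal RNAs mt-Rnr1 and mt-Rnr2 had values of -3.74 and -3.18: mt-Rnr1 measured 353, 408 and 324 dorsally against 455, 326, 290.4 and 215 ventrally in male libraries, and 265, 397 and 270.1 dorsally against 4217, 4429.8 and 2340.4 ventrally in female ones. Complement C3, the central complement component, had -3.02 (adjusted p = 0.0218), with 29.97, 38.9 and 66.5 dorsally against 48.8, 25.99, 81.3 and 77.2 ventrally in male libraries and 2.61, 2.48 and 8.61 dorsally against 31.7, 82.1 and 44.1 ventrally in female ones. Ppp6r1, a phosphatase subunit, and Smpd3, a sphingomyelinase, had -3.205 and -2.83.

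No BMP, TGF-beta, Notch, FGF, Eph, ephrin, semaphorin or plexin gene tested was called in the paired fit. The 18 BMP genes had a median of 0.20 (0.07 without dorsal 4), with 0 higher ventrally and 1 higher dorsally at an unadjusted p under 0.05. Of 12 TGF-beta genes, 3 were higher ventrally at that p and 2 of these did not overlap, beside 6.84% and 6.18% of all genes, while 6 were positive and 6 negative. Their median of 0.12 ranged from -0.003 to 0.29 when a library was left out. Ltbp3 and Ltbp4, proteins that tether latent TGF-beta to the matrix, were the genes without overlap. Ltbp3 had 21.2, 37.2 and 33.2 dorsally against 53.5, 37.5, 66.6 and 68.6 ventrally (paired difference 0.76, adjusted p = 0.13), and Ltbp4 80.4, 97.6 and 79.01 dorsally against 126, 106, 116 and 115 ventrally (paired difference 0.44, adjusted p = 0.202).

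Of 13 Notch genes, 9 were negative, with a median of -0.30 that was -0.07 without ventral 7 and -0.49 without ventral 5. Hey1, a transcriptional repressor induced by Notch, lay higher dorsally without overlap (16.2, 13.7 and 11.5 dorsally, 8.67, 5.95, 5.68 and 7.25 ventrally), and Notch2, a receptor, higher ventrally (15.8, 25.8 and 21.7 dorsally, 29.9, 34.5, 41.2 and 30.1 ventrally). These were the 2 at an unadjusted p under 0.05, and neither was called (paired differences -0.94 and 0.73, adjusted p = 0.178 and 0.134). Medians were 0.09 for 15 FGF genes, 0.14 for 17 Eph receptors and ephrins and 0.19 for 18 semaphorins and plexins. Of these, 2, 1 and 0 were higher ventrally at that p. The FGF median was 0.34 without ventral 5 and 0.21 without ventral 7. That of Eph receptors and ephrins was 0.08 without ventral 6 and 0.21 without ventral 5. For semaphorins and plexins it was 0.04 without ventral 7 and 0.04 without ventral 6. Core cardiac transcription factors (13) had a median of 0.01. The 82 cytosolic ribosomal proteins had a median of 0.07 and of 0.01 without ventral 7, and 2 of them reached an unadjusted p under 0.05.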

How the data were processed

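RNA-seq was done on pools of 2 dissected hearts (40 ng total RNA, poly(A) selection, single reads of 60 bases). Per the study's methods, adapters were trimmed with Cutadapt, reads under 30 bases were dropped, genes were quantified with RSEM on the GRCm38 transcriptome and values were normalized with limma, with a filter of 1 CPM in 3 samples. The submitters' processing notes name RSEM 1.3.1, and the paper names another version. The signal that the authors deposited covers 15894 genes in 14 libraries and is here called normalized CPM. It holds reads plus an offset over an effective library size, since whole reads were recovered for 100.0% of values (tolerance 0.02 reads). Each column was matched to its sample by name, and 0 columns belonged to no sample. Strand use in the counting is not given in the sources used here. Positions came from GENCODE on GRCm38 (15888 of 15894 identifiers matched) and promoters from RefSeq GRCm38.p6 (54 of the 76 called genes had an entry).

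Regions were compared with limma 3.58.1 in R 4.3.3 (lmFit, eBayes with trend) on log2(value + 1). Genes were tested if they reached 1 in 3 or more of the 7 libraries, first unpaired and then with the library number as a block. The numbers were taken to pair the libraries because the deviations of all 3 pairs correlated above 0.1. Males and females were compared in a fit of 13 libraries with 4 groups. Calls used an adjusted p under 0.05 (Benjamini-Hochberg), two-sided. The count test used edgeR 4.0.16 on the recovered reads. The fits were tested on simulated data. Named genes are list members, the 12 genes that changed most in either direction among those without overlap and with a mean of 5 or more, the 15 largest in each direction and the 5 with the smallest adjusted p among paired calls, and the 5 largest in each direction among called differences between the sexes. Predicted genes and pseudogenes were skipped. Other genes are said to have been picked after their values were seen, and Gm42418 was too. The libraries, lists and tests were chosen with earlier results of these data known. The alternatives were pseudocounts of 0.1 and 0.5, no filter, a required mean of 10, scaling by median ratios to a mean library, quantile scaling, no trend, edgeR, voom, GC and length correction (splines with 5 degrees of freedom), each library left out and the block as a fixed or random effect. Counts of list members without ventral 7 or dorsal 6 were added after seeing the data. A few genes that the rule names are not reported here.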

Additional observations from a re-analysis of the deposited data

Results flagged for a closer look

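In the ventral libraries, 12 of 148 values tested had 1 library set apart, by a gap that took up more of the group's whole range than Dixon's 95% critical value for 4 samples, where chance alone gives about 1 in 20. The gap was 0.888 for the summed erythroid markers (11436, 7570.4, 12713 and 53306 in ventral 4 to 7), where ventral 7 was high. It was 0.85 for the summed hepatocyte markers (9.54, 2.22, 1.297 and 2.53), 0.968 for the single thymocyte marker (6.47, 1.102, 1.26 and 1.08) and 0.897 for Ccl21a (508, 59.8, 21.8 and 8.44), in each of which ventral 4 was high. Scgb3a2 had a gap of 0.974 (0.486, 0.0601, 0.299 and 16.2), from ventral 7. The gap was 0.873 for Mirg (16.1, 10.1, 17.01 and 16.7) and 0.834 for Neat1 (45.6, 13.1, 44.1 and 40.2), where ventral 5 was low, and 0.833 for Nuf2 (30.1, 38.7, 31.5 and 31.5), where ventral 5 was high. The gap was 0.85 for Pecam1 (85.5, 98.4, 88.3 and 12.4), where ventral 7 was low. It was 0.863 for Cx3cr1 (13.5, 28.5, 30.9 and 28.8), where ventral 4 was low, and 0.844 for Lyve1 (158, 54.97, 71.03 and 59.7) and 0.841 for Stab1 (74.4, 41.9, 47.1 and 46.3), where ventral 4 was high. Groups of 3 libraries were not tested in this way.

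The ventral minus dorsal change differed between male and female hearts, by the test of that difference, for 25 of the genes given with values. Male minus female values were 9.18 for AY036118, 4.83 for Dapk3, 4.04 for Glrx5, 3.96 for Nrtn, 3.93 for Cited4, 3.39 for Scand1, 2.70 for Rnf187, 2.67 for Gm42418, 2.56 for Rac1, 2.48 for Camk1, 2.26 for Marcksl1, 2.07 for Spi1 and 1.90 for Rarb. They were -3.74 for mt-Rnr1, -3.20 for Ppp6r1, -3.18 for mt-Rnr2, -3.02 for C3, -2.83 for Smpd3, -1.72 for Col14a1, -1.50 for Tnxb, -1.49 for Col5a1, -1.48 for Col6a2, -1.39 for Col6a1, -1.23 for Col4a2 and -1.21 for Ltbp4. Female numbers are 1 to 3 and male numbers 4 to 7, so sex and numbering cannot be told apart here.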

How the results depend on the processing

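The unpaired count of 0 called genes became 1 without the trend in eBayes, 3 with the replicate number as a random effect (consensus correlation 0.224) and 76 with the replicate block, and ranged from 0 to 12 when a library was left out (12 without dorsal 6, 1 without dorsal 4). It stayed at 0 under the other alternatives. The paired count of 76 became 0 without the replicate block, without the trend and with edgeR, 27 with a pseudocount of 0.1 (23 ventral, 4 dorsal), 50 with no filter and 215 with a mean of at least 10 (146 ventral, 69 dorsal). It ranged from 23 (10 ventral, 13 dorsal, without number 4) to 102 (without number 5) when a number was left out, with 46 without number 6. With the GC and length trend removed it was 59 (41 ventral, 18 dorsal, against 62 and 14). Of 30 named genes called in the paired fit, 30 remained called after rescaling by the median of ratios, 27 after GC removal, 22 with voom, 15 with a pseudocount of 0.1, and 0 with edgeR or without the trend; none reversed. The count of 431 genes that differed between the sexes ranged from 260 (without female dorsal 2) to 447 when a library was left out, was 267 without female ventral 2, and became 804 (443 higher, 361 lower) with the replicate block. Of 63 list medians, 63 kept their sign after rescaling by the median of ratios, 58 after quantile scaling, 57 after GC removal and 54 (without ventral 7) to 59 (without ventral 4) when a library was left out. The cause of these changes was not tested. At 3 reads a library gives 0.120 to 0.200 normalized CPM, below which a difference was not detectable.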

Other observations

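Imprinted genes were mixed. Of 17 tested, 12 were positive, with a median of 0.36 (0.21 without dorsal 4), and Meg3 and Cdkn1c were called higher ventrally in the paired fit. H19 had 461, 626 and 769.6 dorsally against 1147, 658, 1079.7 and 1749 ventrally (paired difference 0.62, adjusted p = 0.162). Among 7 EMT factors, 6 were positive (median 0.32) and 3 did not overlap, all of these higher ventrally, beside 6.18% of all genes. Twist1 was one of these, with 0.233, 2.15 and 1.83 dorsally against 2.22, 3.95, 3.21 and 4.402 ventrally. Of 13 IGF pathway genes 9 were positive (median 0.19, or 0.12 without ventral 6). Of 18 chemokines and receptors 14 were positive, 1 of them at an unadjusted p under 0.05, and the median of 0.64 was 0.31 without ventral 7 and 0.42 without dorsal 4.

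On the dorsal side, 15 of 19 genes of cholesterol synthesis were negative, 4 without overlap, beside 7.82% of all genes. Their median was -0.33, and it was -0.19 without dorsal 4 and -0.56 without dorsal 6. Hmgcs1, the synthase at the head of the pathway, had 128, 102 and 81.1 dorsally against 81.9, 89.8, 56.9 and 53.9 ventrally, with overlap. Heat shock proteins were negative in 10 of 12 (median -0.20, or -0.31 without dorsal 6), and the 12 interferon response genes tested had a median of -0.16 (0.07 without dorsal 6) with 0 at an unadjusted p under 0.05. Of 7 arterial endothelial markers 5 were negative (median -0.91 with all libraries, -0.71 without ventral 7 and -0.45 without dorsal 4). Gja5, connexin 40, had 57.03, 40.3 and 3.34 dorsally against 21.3, 13.6, 3.61 and 5.59 ventrally.

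The male library of unsettled region, which entered no comparison, had summed markers of 3508 normalized CPM for epicardium, 12229 for fibroblasts, 368 for macrophages and 28899.7 for ventricular cardiomyocytes. C1qc measured 49.2 in it, Nppa 97.3, Nppb 98.6, Ddc 31.3, Car4 5.46 and Tnc 14.3.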
